A study of Mus musculus with 14 samples.

Results

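The enzymes that make serine and load its carbon onto folate were followed through 14 mouse RNA sequencing libraries. The set holds 9 of the 55291 gene symbols of the deposited tables, taken by symbol: 3 of serine synthesis (Phgdh, Psat1 and Psph), 4 of the mitochondrial folate arm (Shmt2, Mthfd2, Mthfd1l and Aldh1l2) and 2 of the cytosolic arm (Shmt1 and Mthfd1). The genes were selected on their levels and fold changes in both comparisons, in that the set was proposed with those results already known. The values of the 9 genes are therefore given as a description, their calls are set beside the share of all genes called, and nothing is concluded from those counts.

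In the first experiment, wild-type OT-1 splenocytes, whose CD8+ T cells recognise an ovalbumin peptide, were activated with 1 µg/mL of that peptide and 200 U/mL interleukin-2. They were grown with 100 nM ND-646, which blocks acetyl-CoA carboxylase, or with DMSO vehicle, for 3 days of activation and 4 of expansion (n = 4 libraries each). Because whole splenocytes were cultured, the wells began with other cells of the spleen beside CD8+ cells. In the second experiment, CD8+ T cells were enriched and sorted from the spleens and the MCA205 fibrosarcomas of wild-type C57BL/6 mice 14 days after injection of the tumour cells under the skin (n = 3 each). The tumour samples are described as pooled, so how many mice each stands for is not known, and for no group do the labels say whether replicates came from separate animals or cultures. The p-values below thus speak only of variation among the libraries at hand, and this variation may be technical.

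Serine is made from a glycolytic intermediate in the order Phgdh, Psat1, Psph. Serine hydroxymethyltransferase then splits it into glycine and a carbon unit carried by tetrahydrofolate, and this step exists in mitochondria (Shmt2) and in the cytosol (Shmt1). In mitochondria Mthfd2 oxidises the carried unit and Mthfd1l releases it as formate, or Aldh1l2 burns it to carbon dioxide with a gain of NADPH. In the cytosol the single protein Mthfd1 performs the matching steps and hands the carbon to purine and thymidylate synthesis. Activated T cells are known to induce this pathway as they begin to divide, and the amino acid stress factor ATF4 is a known activator of several of its genes.

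Library totals ran from 23.5 to 33.8 M counts (M, 1e+06) in the cultures and from 19.6 to 21.0 M in the sorted cells. In CPM, the count per 1e+06 counts of the scaled library, the 3 counts that a count of 0 allows come to between 0.0878 and 0.154. Such limits cover counting error only. Summed CPM of 17 CD8 T cell identity genes was 7604 to 7903 in the cultures, 12055 to 12131 in spleen and 5334 to 7134 in tumour libraries, and none of the 17 was at 0 throughout a group. Summed CPM of 15 fibroblast and fibrosarcoma genes was 1.85 to 17.8 in spleen, highest in spleen replicate 1, and 11791 to 17042 in tumour libraries, where all 14 tested were called higher. The most abundant of them, the collagen Col3a1, went from 1.47 to 3083 CPM. The sum of 8 B cell genes came to 798 to 830 CPM in spleen and 56.7 to 73.5 CPM in tumour libraries. In the cultures, 12 macrophage, monocyte and neutrophil genes summed to 17.9 to 20.1 CPM with vehicle, with 3 at 0 throughout, and to 5.70 to 7.45 CPM with ND-646, with 5 at 0. The sum of 6 NK cell genes came to 46.5 to 51.4 CPM with vehicle and 15.0 to 16.6 CPM with ND-646. Its most abundant gene, Eomes, went from 23.8 to 8.96 CPM. The sum of 8 B cell genes was instead higher with ND-646 (147.7 to 172.8 CPM) than with vehicle (113.9 to 130.1 CPM). So was that of 4 CD4 T cell genes (148.9 to 163.6 against 116.6 to 126.6 CPM). In each of these 2 lists only the most abundant gene (Ighm and Zbtb7b) was called higher, while 5 and 3 genes were called lower. Whether any of these differences bears on the 9 genes was not tested.

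The stretches just before the transcription start are shown for 4 of the genes, picked on their values. Mthfd2 carries out in mitochondria only part of the steps that Mthfd1 performs in the cytosol, and the 2 genes moved apart in the cultures. Shmt1 moved with Mthfd1 there, and Psat1 differed most between tumour and spleen among the well-counted genes. Sequences are RefSeq's for GRCm38.p6, from 150 bases before the start to 3 before it (1 before it for Psat1), written along the gene's strand. Capitals mark the letters CCAAT or their reverse complement ATTGG.
Mthfd2 (chr6:83317607-83317754, minus strand): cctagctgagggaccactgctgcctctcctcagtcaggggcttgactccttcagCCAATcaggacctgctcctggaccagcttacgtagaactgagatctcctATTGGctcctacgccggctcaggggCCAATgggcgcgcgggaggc
Psat1 (chr19:15925060-15925209, minus strand): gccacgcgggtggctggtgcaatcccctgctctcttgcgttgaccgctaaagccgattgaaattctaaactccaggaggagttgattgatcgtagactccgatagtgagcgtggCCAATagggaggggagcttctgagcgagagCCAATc
Shmt1 (chr11:60811268-60811415, minus strand): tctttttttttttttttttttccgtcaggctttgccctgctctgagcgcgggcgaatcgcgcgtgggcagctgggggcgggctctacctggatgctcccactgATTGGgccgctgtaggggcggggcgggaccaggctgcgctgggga
Mthfd1 (chr12:76255082-76255229, plus strand): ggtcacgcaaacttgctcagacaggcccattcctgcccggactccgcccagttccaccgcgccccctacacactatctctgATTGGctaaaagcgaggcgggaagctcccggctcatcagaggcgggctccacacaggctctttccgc

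CCAAT occurs 3 times in the Mthfd2 stretch, 2 times in that of Psat1 and 1 time in each of the others. Of the 9 genes, 8 had an entry in the sequence table, all but Aldh1l2. These 8 genes have 9 windows of 250 bases before a start, since Psat1 has a second start, whose window holds no CCAAT. On both strands, 6 of the 9 windows held CCAAT (1 each of Phgdh, Psat1, Psph, Mthfd2, Shmt1 and Mthfd1), against 33.8% of 32851 windows of that length. None of the 9 windows held TGATGNAA, a core of sites that ATF4 can bind with C/EBP proteins, found in 3.45% of windows, or the E-box CACGTG, found in 6.02%. A match of letters does not show binding, and its absence speaks only of these windows.

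The abundance of the 9 transcripts was compared between genes only per kilobase, using the longest coding transcript of each gene in GENCODE M21. In vehicle cultures Phgdh led at 265 ± 10.7 CPM per kilobase (SD, n = 4), followed by Shmt2 at 147 ± 3.83, Psat1 at 118 ± 5.86 and Mthfd2 at 98.5 ± 6.77. Mthfd1 (34.2 ± 1.3) and Mthfd1l (28.2 ± 0.732) came next. Psph at 19.3 ± 0.462 and Shmt1 at 18.7 ± 1.25 did not differ beyond their spread, and Aldh1l2 was last at 0.578 ± 0.0149. With ND-646, Psat1 (112 ± 5.18) and Mthfd2 (112 ± 2.21) could no longer be ordered. In spleen, Shmt2 (72.9 ± 2.12) and Phgdh (69.2 ± 2.38) shared the top within their spread (SD, n = 3). Phgdh led alone in tumour libraries at 109 ± 3.55 CPM per kilobase (SD, n = 3). Aldh1l2 was the least abundant of the 9 in all 4 groups. The isoforms in use are not known, and a shorter transcript would raise a gene's value.

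**Figure D1:**
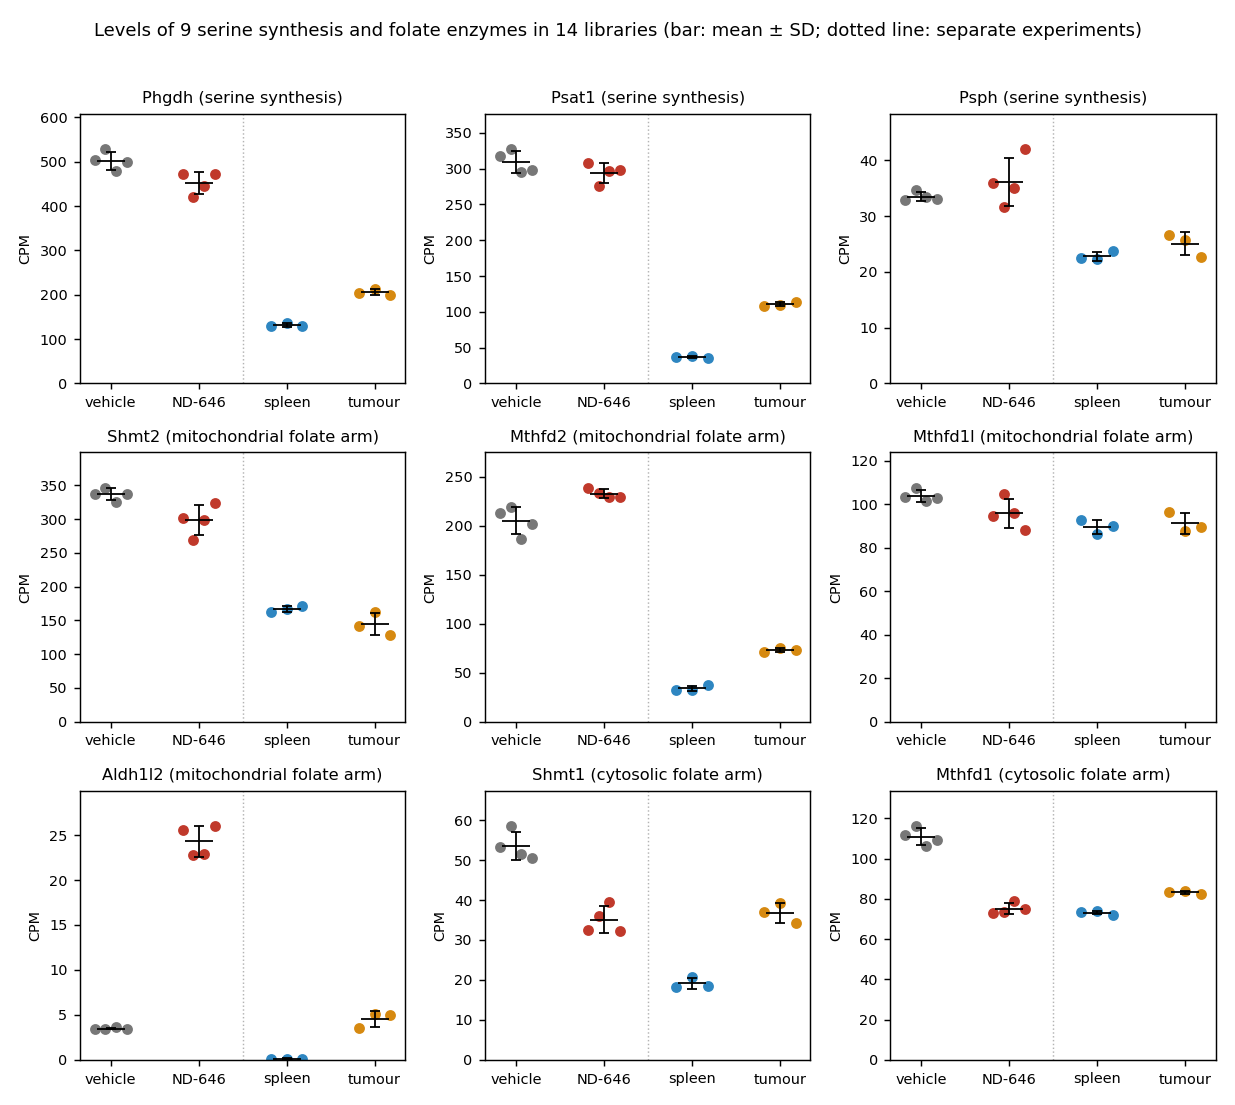
CPM of each of the 9 enzymes (vertical axes, each from 0) in every library of the 4 groups, with the mean and SD as bars. Aldh1l2 is near 3.48 CPM with vehicle and 24.3 CPM with ND-646, Shmt1 and Mthfd1 are lower with ND-646, and Psat1 and Mthfd2 are higher in tumour than in spleen libraries.

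The first comparison asked how block of acetyl-CoA carboxylase altered these transcripts. With ND-646, Aldh1l2 was 6.98-fold higher, Mthfd2 slightly higher, and both cytosolic enzymes about 1.5-fold lower, while the 3 serine synthesis genes differed by log2 fold changes of -0.15 to 0.11. Of the 9 genes, all passed the low-count filter, 7 were called by the quasi-likelihood test of edgeR (adjusted p under 0.05) and 6 had groups that did not overlap. Among all 14251 genes tested, 56.3% were called and 51.1% did not overlap. The 7 divided into 2 higher (Aldh1l2 and Mthfd2) and 5 lower, where 29.8% and 26.5% of all genes were called in those directions. The median log2 fold change of the 9 was -0.11, against 0.01 over all genes. In bulk libraries fewer cells of a kind and less RNA per cell cannot be told apart.

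In serine synthesis, Phgdh, the dehydrogenase that commits the glycolytic intermediate, stood at 504, 528, 479 and 499 CPM with vehicle and at 472, 420, 444 and 472 CPM with ND-646. All 4 ND-646 values lie under all 4 vehicle values, a log2 fold change of -0.15 ± 0.04 (SE). Psat1, the aminotransferase that takes its nitrogen from glutamate, averaged 310 ± 15.3 and 294 ± 13.6 CPM (SD, n = 4 each). Its groups overlapped and it did not pass, nor did Psph, the phosphatase of the last step, at 33.5 ± 0.801 and 36.2 ± 4.34 CPM. The wider ND-646 spread of Psph came from replicate 4 at 42.0 CPM and replicate 2 at 31.6 CPM. Without replicate 2 Psph passed (log2 fold change 0.16), and without replicate 4 its value was 0.02 (edgeR adjusted p = 0.819). Psat1 passed without ND-646 replicate 1 (-0.11).

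In the mitochondrial arm the 4 genes moved in different directions. Shmt2, which feeds the arm with serine carbon, went from 338, 347, 325 and 337 CPM with vehicle to 301, 269, 299 and 324 CPM with ND-646 (log2 fold change -0.17 ± 0.05, SE). Mthfd2, the next enzyme, went the other way, from 213, 219, 187 and 202 CPM to 239, 234, 229 and 229 CPM (0.18 ± 0.04). For both genes the groups came close to one another without overlapping, and neither differed by more than 1.13-fold. Mthfd1l, the formate-releasing synthetase, stood at 103, 108, 102 and 103 CPM with vehicle and at 94.8, 105, 96.1 and 88.4 CPM with ND-646, so that its groups overlapped through ND-646 replicate 2. Its log2 fold change of -0.11 ± 0.05 passed in the full set, and the call was lost without vehicle replicate 1, 2 or 4 or ND-646 replicate 4 (edgeR adjusted p = 0.0675 to 0.123).

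Aldh1l2, the branch that oxidises the carbon unit instead of exporting it, stood apart from its neighbours in the arm. It had 3.48, 3.43, 3.61 and 3.41 CPM with vehicle and 25.6, 22.8, 22.9 and 26.0 CPM with ND-646. The lowest ND-646 library thus lay far above the highest vehicle library, and the log2 fold change was 2.80 ± 0.08 (SE), which ranked 29 among 14251 genes from the top. Transcripts of Aldh1l2 and of D10Wsu102e, on the opposite strand, share 1056 bases, and use of strand in counting is not given in the sources used here. D10Wsu102e itself averaged 75.5 and 69.5 CPM (log2 fold change -0.12 ± 0.05, edgeR adjusted p = 0.0604). What part its reads have in the Aldh1l2 counts was not tested.

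The cytosolic enzymes were both lower. Shmt1 stood at 53.2, 58.6, 51.6 and 50.6 CPM with vehicle and at 32.5, 35.9, 39.6 and 32.3 CPM with ND-646, 1.53-fold lower (log2 fold change -0.61 ± 0.06, SE). Mthfd1, which joins the dehydrogenase, cyclohydrolase and formyl-synthetase steps in one protein, stood at 111, 116, 106 and 109 CPM and at 73.1, 73.3, 78.8 and 75.1 CPM, 1.48-fold lower (-0.56 ± 0.04). In both genes a wide gap separates the groups.

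**Figure D2:**
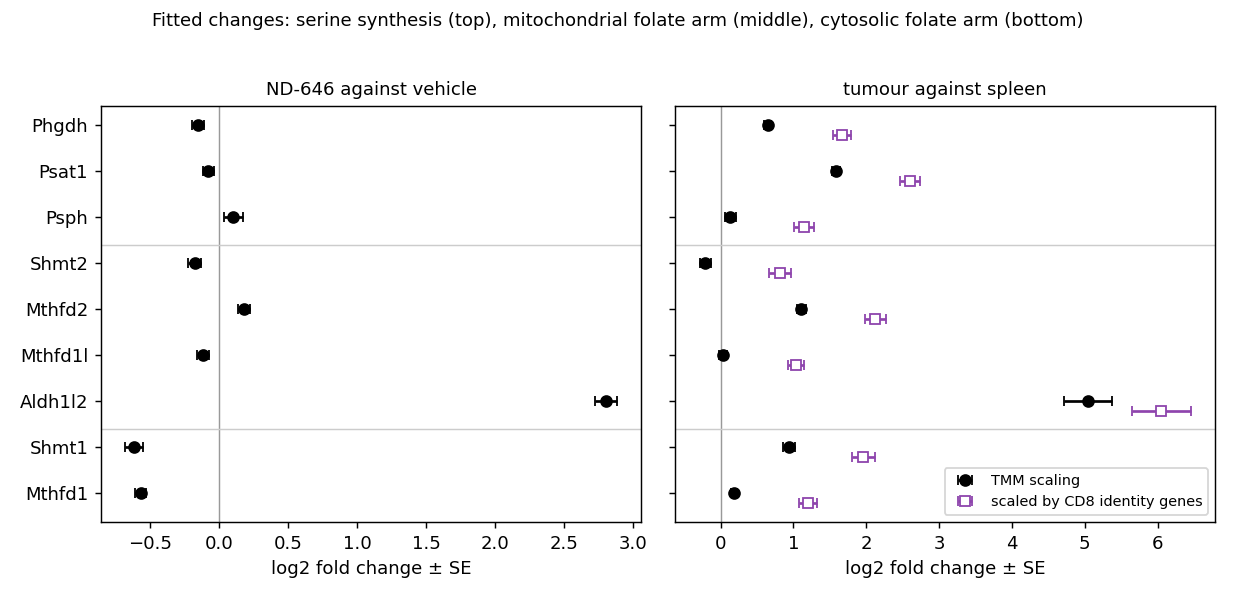
Log2 fold change and standard error of each enzyme (horizontal axes) in ND-646 against vehicle cultures (left) and tumour against spleen (right), where open squares are the same fit scaled by CD8 identity genes. On the left the cytosolic pair lies near -0.6 and Aldh1l2 at 2.80. On the right every square is about 1 unit above its circle, and Shmt2 lies on opposite sides of 0.

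Ratios within a library do not depend on how libraries are scaled. Shmt1 and Mthfd1 fell further (log2 fold changes -0.61 and -0.56) than Shmt2 and Mthfd1l (-0.17 and -0.11). Of the mitochondrial enzymes in these ratios only Mthfd2 was itself higher (0.18). The ratio of Mthfd2 to Mthfd1 counts was 1.91, 1.89, 1.76 and 1.85 in vehicle libraries and 3.27, 3.19, 2.91 and 3.05 in ND-646 libraries, a shift of 0.75 on the log2 scale. The log2 ratio of Shmt2 to Shmt1 was 2.67, 2.57, 2.66 and 2.74 with vehicle and 3.21, 2.90, 2.92 and 3.33 with ND-646, a shift of 0.43. Neither ratio overlapped between the groups, where 51.1% of all genes did not overlap in CPM. The share of non-overlapping ratios among other pairs of genes was not counted, so nothing is concluded from the lack of overlap. Mthfd1l to Mthfd1 moved from between 0.927 and 0.955 to between 1.18 and 1.43, so transcripts of Shmt2, Mthfd2 and Mthfd1l each gained on the cytosolic counterpart among the 9. Within serine synthesis the ratio of Psat1 to Phgdh shifted by 0.08 with overlapping groups, and that of Psph to Phgdh by 0.25, from 0.0668 to 0.0797 (geometric means), without overlap.

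ND-646 libraries 1 and 4 were nearer to each other over all genes (chi-square 5.07 per degree of freedom), and so were 2 and 3 (3.65), than libraries of different pairs (7.37 to 11.3), and the labels name no batch. Replicates 1 and 4 had the higher Aldh1l2, Phgdh, Psat1, Psph and Shmt2, the lower Shmt1 and Mthfd1l, and the higher Shmt2 to Shmt1 ratio. Mthfd2 and Mthfd1 were not divided in this way. The share of all genes so divided was not counted, and the division was itself read from all genes, so nothing is concluded about the enzymes. Summed CPM of 18 proliferation genes was 2344 and 2347 in replicates 1 and 4 and 2602 and 2838 in replicates 2 and 3, against 3874 to 4010 with vehicle. Whether this bears on the enzymes was not tested.

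**Figure D3:**
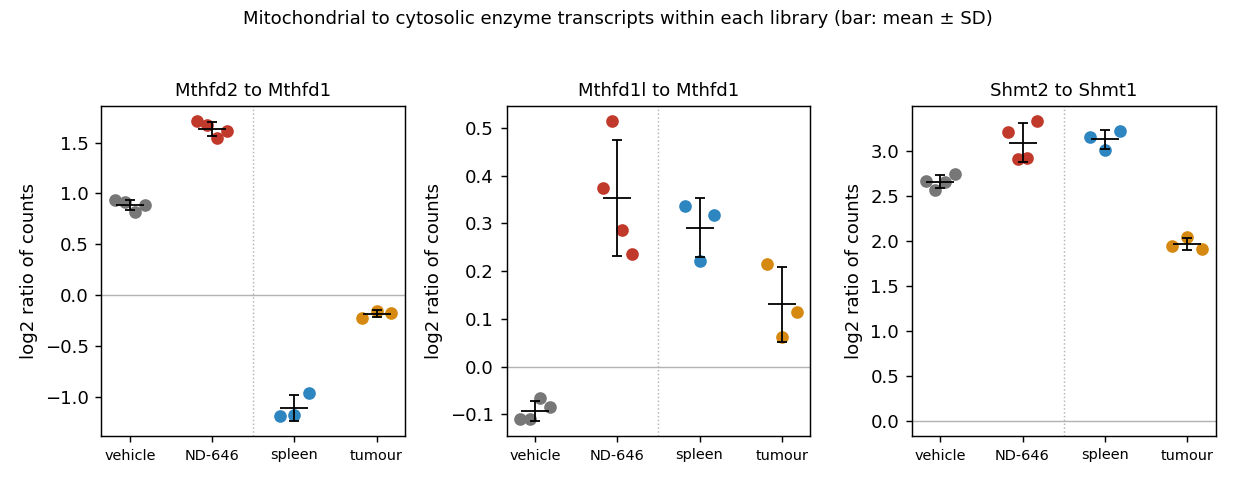
Log2 ratio of the counts of a mitochondrial enzyme to its cytosolic counterpart in every library (vertical axes), with group mean and SD as bars. Mthfd2 to Mthfd1 is higher with ND-646 and in tumour libraries, whereas Shmt2 to Shmt1 is higher with ND-646 (mean 3.09 against 2.66) and lower in tumour than in spleen libraries (1.96 against 3.13).

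Other genes of the pathway were read from 7 lists holding 106 genes, none of them among the 9. Over all genes of this comparison 29.8% were called higher and 26.5% lower, and each list count is to be read beside these shares. Of 25 genes of the ATF4 and amino acid response, 22 rose and 1 fell. The median log2 fold change of these 25 was 0.51, against 0.01 over all genes. Stc2, a secreted stress glycoprotein, rose by 2.41 ± 0.04 (SE, adjusted p = 6.31e-18), from 23.6 to 126 CPM, and Nupr1, a stress-induced nuclear protein, by 1.73 ± 0.06 (adjusted p = 1.28e-13). Slc7a5, a transporter of large neutral amino acids and the most abundant of the list, rose by 0.12 ± 0.04 (adjusted p = 0.0183). Of the 9 enzymes, Aldh1l2 and Mthfd2 were called in the same direction as most of this list. Phgdh, Shmt2, Mthfd1l, Shmt1 and Mthfd1 were called in the other direction, and Psat1 and Psph were not called. Whether ATF4 bears on any of the enzymes was not tested.

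All 18 proliferation genes fell, with a median of -0.57. Cdc20, an activator of the anaphase ubiquitin ligase, changed by -1.23 ± 0.05 (adjusted p = 3.69e-12) and Tk1, thymidine kinase, by -0.85 ± 0.04 (adjusted p = 2.11e-11). Top2a, a topoisomerase of dividing cells, fell from 700 ± 31.3 to 393 ± 49.4 CPM (SD, n = 4 each, edgeR adjusted p = 1.01e-05). Of 13 genes of purine synthesis, which consumes formyl groups made by Mthfd1, 9 fell and 1 rose (median -0.18). Its smallest p-values belonged to Impdh2, of guanine nucleotide synthesis (-0.46 ± 0.03, adjusted p = 3.24e-09), and Gart, a folate-dependent enzyme (-0.47 ± 0.04, adjusted p = 5.91e-08). Paics, another enzyme of the route, changed by -0.13 ± 0.04 (adjusted p = 0.0146). Among 9 tested genes of folate uptake and cytosolic folate use, 5 fell and 3 rose (median -0.18). Tyms, thymidylate synthase, changed by -0.55 ± 0.06 (adjusted p = 1.92e-07).

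Of 16 tested genes of serine use and transport, 8 rose and 2 fell (median 0.12). The neutral amino acid carrier Slc1a4, which takes up serine, rose from 32.2 to 56.4 CPM (0.81 ± 0.04, adjusted p = 3.79e-11), while Serinc3, a membrane protein and the most abundant of the list, was at 554 and 540 CPM without a call and Sfxn1, which carries serine into mitochondria, fell from 80.0 to 57.5 CPM (-0.48 ± 0.04, adjusted p = 4.23e-08). The other mitochondrial one-carbon genes were divided, 2 higher and 2 lower of 7, with Dld, a subunit shared with other dehydrogenase complexes, at 0.09 ± 0.04 (adjusted p = 0.0447) and the glycine cleavage subunits Amt at 0.58 ± 0.10 (adjusted p = 8.2e-05) and Gcsh at -0.30 ± 0.08 (adjusted p = 0.00275). The methionine cycle was divided too, 3 higher and 2 lower of 7, with Ahcyl2 0.47 ± 0.04 higher (adjusted p = 7.95e-09). Mat2b, the regulatory subunit of methionine adenosyltransferase, rose by 0.52 ± 0.05 (adjusted p = 3.89e-07) and Mat2a, the catalytic subunit, changed by -0.38 ± 0.05 (adjusted p = 1.5e-06).

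**Figure D4:**
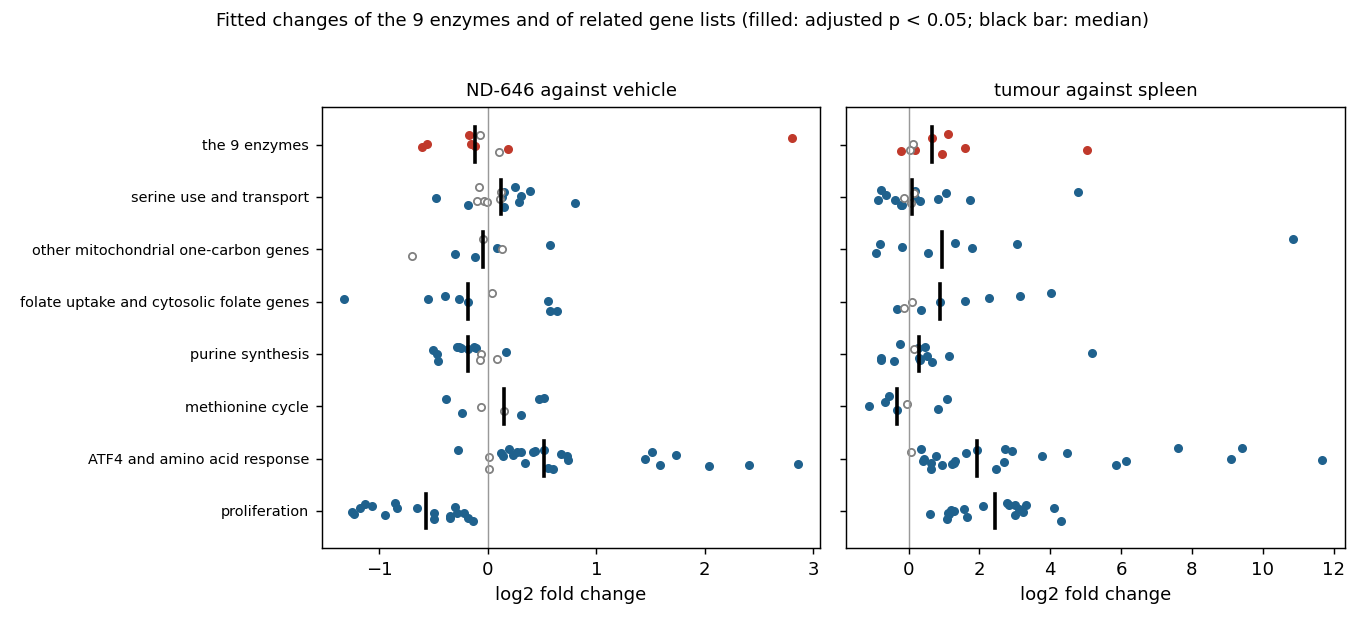
Log2 fold changes (horizontal axes) of the 9 enzymes (red) and of each tested gene of 7 related lists (blue), for both comparisons; filled points passed an adjusted p of 0.05, open points did not, and black bars are medians. In the cultures the ATF4 list lies mostly to the right of 0 and the proliferation list wholly to the left, and in tumour against spleen both lie to the right.

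The second comparison asked how tumour CD8+ cells differ from those of spleen. Psat1 was 3.00-fold, Mthfd2 2.16-fold, Shmt1 1.92-fold and Phgdh 1.57-fold higher in tumour libraries, Aldh1l2 went from a few counts to about 4.54 CPM, and Psph, Shmt2 and Mthfd1l stayed close to their spleen levels. Of the 9 genes, 7 passed, 6 higher and 1 lower, and 7 had groups that did not overlap. Of 15042 genes tested, 83.8% were called (43.6% higher and 40.2% lower) and 86.2% did not overlap. The median log2 fold change of the 9 was 0.65, against 0.03 over all genes. Scaled by CD8 identity genes instead, all 9 were called, each higher, beside 81.9% of all genes called and 70.4% called higher, and that scaling moved the all-gene median by 1.01. Of all called genes, 52.0% were higher under the first scaling and 85.9% under the second. Fold changes here are therefore relative to all RNA of the library, which in tumour libraries included the connective tissue transcripts given above. What part RNA of that source has in the 9 genes, or in the list genes below, was not tested.

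The serine synthesis genes separated. Psat1 stood at 36.7, 39.0 and 35.3 CPM in spleen and at 109, 110 and 114 CPM in tumour libraries (log2 fold change 1.58 ± 0.05, SE). Phgdh stood at 128, 136 and 128 CPM and at 205, 213 and 199 CPM (0.65 ± 0.05). Neither gene's groups overlapped, and the ratio of Psat1 to Phgdh counts rose from 0.282 to 0.540 (geometric means). Psph was at 22.5, 22.3 and 23.7 CPM in spleen and 26.7, 25.8 and 22.8 CPM in tumour libraries, overlapping, and did not pass. It passed without tumour replicate 3 (log2 fold change 0.23, against 0.13 with it) and with the identity scaling. Transcripts of Psph and of Cct6a, on the opposite strand, share 452 bases, and Cct6a, a chaperonin subunit, was 0.73 ± 0.07 higher (edgeR adjusted p = 4.37e-06). With ND-646 in the cultures Cct6a changed by -0.21 ± 0.04 (edgeR adjusted p = 0.00023). What part its reads have in the Psph counts was not tested.

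In the mitochondrial arm Mthfd2 went from 32.3, 32.8 and 37.1 CPM in spleen to 71.4, 75.4 and 73.3 CPM in tumour libraries (1.11 ± 0.06, SE), with a wide gap between the groups. Shmt2 stood at 162, 167 and 172 CPM and at 142, 162 and 129 CPM, so that tumour replicate 2 nearly met the lowest spleen library. Its log2 fold change of -0.21 ± 0.08 passed only in part of the fits: the call was lost without any of the libraries but tumour replicate 2 (edgeR adjusted p = 0.0738 to 0.225), and the value turned to 0.81 ± 0.15 when scaled by CD8 identity genes. Mthfd1l was at 89.6 ± 3.17 and 91.3 ± 4.76 CPM (SD, n = 3 each) and did not pass, but changed by 1.03 ± 0.11 under the identity scaling. The ratio of Mthfd2 to Shmt2 counts, free of any scaling, rose from 0.203 to 0.511.

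Aldh1l2 was scarce in both groups. The 3 spleen libraries held 3.03, 2.00 and 3.00 counts and the tumour libraries 72.2, 98.9 and 104, or 3.56, 5.08 and 4.97 CPM. Over the groups this is a ratio of 34.5 (95% exact Poisson interval 17.3 to 80.7, counting error only), and the spleen counts lie at or near the limit that a count of 0 allows. Tumour replicate 1, the lowest in Aldh1l2, also had the lowest sum of fibroblast and fibrosarcoma genes, 11791 CPM, against 17042 in replicate 2 and 15056 in replicate 3. Psat1 and Mthfd2 were also lowest in tumour replicate 1, and the remaining enzymes were lowest in another tumour library. What part such RNA has in any of these genes was not tested. The overlapping gene D10Wsu102e was at 71.4 and 80.6 CPM (0.17 ± 0.05, edgeR adjusted p = 0.0113), and its part in the Aldh1l2 counts was not tested.

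The cytosolic pair, lower with ND-646, was higher in tumour than in spleen libraries. Shmt1 stood at 18.3, 20.7 and 18.5 CPM in spleen and at 37.1, 39.2 and 34.2 CPM in tumour libraries (0.94 ± 0.08, SE). Mthfd1 stood at 73.4, 74.1 and 72.2 CPM and at 83.3, 84.1 and 82.6 CPM (0.19 ± 0.04), a small difference with a tight spread. The ratio of Shmt2 to Shmt1 counts fell from 8.88, 8.06 and 9.29 to 3.83, 4.12 and 3.76, while that of Mthfd2 to Mthfd1 rose from 0.440, 0.442 and 0.513 to 0.858, 0.897 and 0.888. That of Mthfd1l to Mthfd1 fell from 1.26, 1.17 and 1.25 to 1.16, 1.04 and 1.08, so that its groups nearly met. None of the 3 ratios overlapped between the groups, where 86.2% of all genes did not overlap in CPM. For ratios of other pairs of genes that share was not counted. Mthfd2 thus gained on its cytosolic counterpart while Shmt2 lost ground to its own, and Mthfd1l did so only slightly.

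Of the other lists, the ATF4 and amino acid response had 24 of its 25 genes higher and 0 lower (median 1.94, or 2.98 with the identity scaling). Over all genes 43.6% were called higher and 40.2% lower, and each list count of this comparison is to be read beside these shares. Atf4 itself rose by 1.63 ± 0.07 (adjusted p = 1.95e-08) and Cebpb, a partner factor, by 3.76 ± 0.10 (adjusted p = 2.71e-09), with Asns, asparagine synthetase, going from 0.457 ± 0.232 to 27.0 ± 2.86 CPM (SD, n = 3 each), a called log2 fold change of 5.86 ± 0.22. The 18 proliferation genes all rose (median 2.44), among them the cyclin Ccnb1 at 4.11 ± 0.08 (adjusted p = 8.68e-10), Tk1 at 3.01 ± 0.06 (adjusted p = 1.04e-09) and Top2a at 3.32 ± 0.15 (adjusted p = 1.46e-07), and their summed CPM went from 887 to 1034 in spleen to 3403 to 3732 in tumour libraries. Of 9 tested genes of folate uptake and cytosolic folate use, 6 rose and 1 fell, among them Tyms at 3.14 ± 0.13 (adjusted p = 3.3e-08). Of 13 purine synthesis genes 8 rose and 4 fell, with Impdh2 0.47 ± 0.06 higher (adjusted p = 3.71e-05), the muscle-type Adssl1 going from 0.527 to 19.3 CPM (adjusted p = 1.28e-08) and Gmps, of guanine nucleotide synthesis, 1.13 ± 0.06 higher (adjusted p = 6.08e-08).

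Serine use and transport genes went both ways, 7 higher and 6 lower of 16, beside 43.6% and 40.2% over all genes. Slc1a4 went from 1.64 ± 0.383 to 45.8 ± 5.88 CPM (SD, n = 3 each, edgeR adjusted p = 8.04e-09) and Slc38a2, a carrier of small neutral amino acids, rose by 1.74 ± 0.06 (adjusted p = 8.48e-09). Of 8 other mitochondrial one-carbon genes 5 rose and 3 fell, among them Dld at 0.55 ± 0.05 (adjusted p = 5.18e-06), Gcsh at 1.79 ± 0.09 (adjusted p = 5.47e-08) and Mtfmt, which formylates the mitochondrial initiator tRNA, at -0.82 ± 0.07 (adjusted p = 4.54e-06). The methionine cycle had 2 higher and 4 lower of 7, with Ahcy, which clears S-adenosylhomocysteine, at 1.09 ± 0.04 (adjusted p = 2.17e-08) and Mtr, methionine synthase, at -1.12 ± 0.05 (adjusted p = 5.32e-08), while Mat2a was at 157 and 152 CPM without a call. With the identity scaling, 88 of the 96 list genes tested were called higher and 0 lower, beside 70.4% of all genes called higher, and Mtfmt and Mtr stood at 0.19 and -0.11 without a call.

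Set side by side across the experiments, whose tables were scaled separately and differ in cells, mice and handling at once, the enzymes differed widely in how far cultured cells lay above spleen cells. Mean CPM in vehicle cultures was 8.37 times the spleen value for Psat1, 6.03 times for Mthfd2, 3.83 times for Phgdh, 2.79 times for Shmt1 and 2.02 times for Shmt2. For Mthfd1, Psph and Mthfd1l the ratio was 1.51, 1.47 and 1.16. No test was made across the tables. For Aldh1l2, with its few spleen counts, it was 26.5.

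Genes whose pair of log2 fold changes lay nearest to those of an enzyme were sought among genes with a mean of at least 5 CPM in both tables. Aldh1l2 (2.80 and 5.04) is itself under that limit in the spleen and tumour table, and its second value rests on 8 spleen counts, so genes as scarce as it were not searched. The nearest of those searched were Ttc39c at a distance of 0.88 (2.00 and 5.41), Ramp3 at 1.27 and Mapk12 at 1.38. Phgdh had neighbours within 0.016, among them Psmc5, a proteasome subunit, and Cnpy2. Mthfd2 had Arl3, Hcfc1r1 and Rsrc1 within 0.041. These distances rest on 14 libraries in 2 comparisons and describe likeness of pattern only.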

How the data were processed

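The values are estimated counts, which the authors deposited by gene symbol in a separate table for each experiment. STAR, Salmon and DESeq2 are listed, with no version, per the submitters' processing notes. Neither genome build nor strand setting is given in the sources used here. Counts were rounded and fitted within each table in edgeR 4.0.16 (R 4.3.3): filterByExpr, TMM scaling, robust quasi-likelihood test, Benjamini-Hochberg adjustment over all genes tested at 0.05. CPM is counts per 1e+06 of the TMM-scaled library. Standard errors come from the F statistic. The fit was also run on simulated counts with 200 changed genes and 1 dispersion for all genes. Far more genes were called in the data, so that run cannot show how the scaling behaves here. Overlapping transcripts were found with blastn 2.17.0+ in GENCODE M21 (at least 95% identity over 200 bases). Pseudogenes near-identical to Phgdh held under 1% of its counts.

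The 9 genes and all lists were chosen with earlier results of these data known. Named genes are the 9, of each pathway list the 2 smallest p-values and the gene of highest CPM, the marker genes of highest CPM where a marker result is given, and the 3 nearest patterns of Aldh1l2, Phgdh and Mthfd2. Some genes that this rule names are not reported here. Samples were grouped by title. Alternatives were DESeq2 1.42.0, limma-voom (limma 3.58.1), other filters, the replicate block, CD8 identity scaling and leaving out each library.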

Additional observations from a re-analysis of the deposited data

Results flagged for a closer look

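Of 112 groups of 4 culture libraries checked for a library far from the other 3, 3 passed Dixon's 95% critical value, where chance gives about 5% of groups. None was among the 9 enzymes or their ratios. Slc7a5, an amino acid transporter, was at 523 CPM in vehicle replicate 3 and between 562 and 569 CPM in the others (gap to range 0.852). Gmps was at 99.8 CPM in vehicle replicate 4 and between 109 and 111 CPM in the others (0.854). Slc38a2 was at 337 CPM in ND-646 replicate 4 and between 313 and 316 CPM in the others (0.870).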

How the results depend on the processing

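For ND-646 against vehicle, 120 of the 126 refitted log2 fold changes of the 9 enzymes (14 alternatives) kept direction and side of the threshold. The others were the 4 lost calls of Mthfd1l and the gains of Psat1 and Psph given above. For tumour against spleen 102 of 116 did. Of the rest 8 lost and 5 gained a call and 1 reversed, Shmt2 at 0.81 when scaled by CD8 identity genes. Shmt2 also lost its call with DESeq2's size factors (edgeR adjusted p = 0.12), DESeq2's Wald test (adjusted p = 0.137) and the filter of 10 counts in every library (edgeR adjusted p = 0.128), which left Aldh1l2 untested. Beside the gains given above, a call was gained with DESeq2's size factors (7 of 9 enzymes higher, 0 lower). Another was gained with the filter (6 of 8 tested higher, 0 lower). The counts of called enzymes, list genes and all genes stayed within 1.5 times in every alternative. Leaving out 1 library gave 6 to 8 called enzymes in the cultures and 6 to 7 in tumour against spleen. With the replicate number as a block, 7864 and 12492 genes were called, with 7 of the enzymes in each. Same-numbered libraries correlated at -0.15 to 0.062 and at -0.0216 to -0.0126 in their deviations, not better than others. With so few libraries per group these correlations cannot show whether the numbers pair the libraries. Aldh1l2 in spleen is limited by depth.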

Other observations

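Some scarce genes beside the 9 enzymes, singled out after their values were seen, also differed between tumour and spleen. Aldh1l1, the cytosolic counterpart of Aldh1l2, stood at 1.16, 0.999 and 0.848 CPM in spleen and 13.4, 17.7 and 18.1 CPM in tumour libraries (edgeR adjusted p = 5.32e-08), and in the cultures it fell from 2.57 ± 0.502 CPM with vehicle to 1.03 ± 0.0798 CPM with ND-646 (SD, n = 4 each, edgeR adjusted p = 7.53e-06). The 2 formyl-tetrahydrofolate dehydrogenases thus moved apart in the cultures and together in tumour libraries. Gldc, the decarboxylase of the glycine cleavage system, had no count in spleen and 218, 146 and 329 counts in tumour libraries, at least 232-fold higher against 3 counts over the spleen group. Tumour libraries also held the fibroblast and fibrosarcoma transcripts given above. What part such RNA has in Aldh1l1 and Gldc was not tested, so these values cannot be assigned to CD8+ cells.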
